A study of Mus musculus with 12 samples.

Results

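Resident macrophages were followed in the cochlear epithelium of mouse embryos through 10 genes: the surface receptors Csf1r, Cx3cr1, Mrc1 and Ptprc, the lysosomal membrane gene Cd68, the signalling adaptors Tyrobp and Fcer1g, and the complement subunit genes C1qa, C1qb and C1qc. The genes were listed by name, and each was represented by its transcript row with the most reads summed over the 6 embryos, among 22869 gene symbols in all. All 10 had reads in every embryo and all 10 passed the filter on low counts, as did 14717 genes in all. RNA-seq was done on 3 Esrp1-/- embryos (Esrp1 knockout) and 3 Esrp1+/+ embryos (control, labelled wild-type), all C57BL/6 at embryonic day 16.5. Each sample came from both cochleae of a single embryo, whose epithelium was cut out by hand and stripped of mesenchyme with collagenase P. No Cre driver, agent or treatment of the embryos is given in the labels, so the groups differ by the Esrp1 genotype alone as labelled.

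Macrophages settle in the inner ear before birth and depend on signalling through CSF1R for survival. They are immune cells of blood-forming origin and not part of the epithelium proper, and in the cochlea they are known from the mesenchyme, the nerve and the vessels. Their C1q starts the classical complement pathway by binding to immune complexes and to dying cells, after which the proteases C1r and C1s and then C4, C2 and C3 act in turn. ESRP1, the protein missing in the knockout, is a splicing regulator of epithelial cells.

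The 3 C1q genes lie side by side on chromosome 4 within 18.7 kb, with C1qb at 136880126 to 136886200, C1qc at 136889801 to 136892936 and C1qa at 136895916 to 136898844 (mm10). The Esrp1 gene is on the same chromosome, 125.5 Mb away. Of the 10 genes, 7 had a promoter in the RefSeq table used (GRCm38.p6). The 250 bases before the transcript start that this table uses are shown for C1qb, C1qc and Mrc1 because C1qb and C1qc were read out in proportions that overlapped between the groups, while the ratio of Mrc1 to each of them did not overlap. Each is written 5′ to 3′ on the strand of its gene, which is the minus strand for C1qb and C1qc and the plus strand for Mrc1. Capitals mark GAGGAA, the core of the site bound by PU.1, a transcription factor that macrophages need to form, on either strand (TTCCTC on the other).
C1qb, chr4:136886201-136886450: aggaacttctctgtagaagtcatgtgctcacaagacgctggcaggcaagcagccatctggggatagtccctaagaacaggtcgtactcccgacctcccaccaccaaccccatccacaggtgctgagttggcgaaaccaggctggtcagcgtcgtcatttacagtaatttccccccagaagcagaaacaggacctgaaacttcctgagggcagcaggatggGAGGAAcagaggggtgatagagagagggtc
C1qc, chr4:136892915-136893164: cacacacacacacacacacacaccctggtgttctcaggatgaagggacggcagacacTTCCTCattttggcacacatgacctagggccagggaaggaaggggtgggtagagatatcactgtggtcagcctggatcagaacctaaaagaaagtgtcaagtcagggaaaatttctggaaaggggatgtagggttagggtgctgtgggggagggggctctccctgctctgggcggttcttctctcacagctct
Mrc1, chr2:14229164-14229413: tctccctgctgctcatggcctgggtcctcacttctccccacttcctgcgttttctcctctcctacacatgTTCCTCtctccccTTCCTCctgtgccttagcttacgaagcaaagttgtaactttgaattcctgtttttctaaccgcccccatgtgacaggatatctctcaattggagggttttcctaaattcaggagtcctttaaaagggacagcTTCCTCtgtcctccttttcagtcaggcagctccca
The match lay 30 bases before that transcript start in C1qb and 193 bases before it in C1qc, and Mrc1 had 3 matches. For C1qc the last 22 bases shown lie inside the gene span given above, whose start is further upstream, and the match lay 171 bases before that span. The windows of Ptprc lie inside its gene span as well. GAGGAA was found in the 250 upstream bases of 5 of the 7 genes (C1qb, C1qc, Mrc1, Cd68 and Ptprc) and of 25.9% of the 27025 genes in the table. The longer letters GAGGAAGT, which contain the core, were found in C1qc and in 2.79% of all genes. Such matches describe the letters and do not show binding.

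Between 12547301 and 18473139 reads per knockout embryo and between 16411205 and 21568516 reads per control embryo fell on genes. Esrp1 itself averaged 33.5 ± 5.98 CPM (reads of a gene relative to the depth of its library, with libraries scaled to each other) in knockouts and 139 ± 50.9 CPM in controls (SD, n = 3 each; adjusted p = 0.0354 by the quasi-likelihood test of edgeR), as the labels say. The embryos also differed in sex: Ddx3y, a gene of the Y chromosome, stood at 94.97 CPM in knockout 2 and 81.9 CPM in knockout 3, while knockout 1 and every control had under 1 CPM of it. The tissue label was met by the epithelial list of 12 genes, which summed to 1554 to 1970 CPM in knockouts and 1165 to 2296 CPM in controls, but 12 mesenchymal genes summed to 4823 to 5138 CPM in knockouts and 3887 to 4955 CPM in controls, so RNA of other cells was present in every sample.

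None of the 10 macrophage and complement genes passed the test between knockout and control (0 of 10, edgeR's quasi-likelihood test over all genes with Benjamini-Hochberg adjustment at 0.05). Of all genes tested, 0.149% passed. The 10 genes had adjusted p = 0.994 each, 0 of them had an unadjusted p under 0.05 (lowest 0.0968), against 4.77% of all genes tested, and DESeq2 also called 0 of them, against 1.01% of the genes to which it gave an adjusted p. Of the 10 log2 fold changes 9 were positive, with a median of 0.43, against a median of 0.00162 over all genes tested, of which 50.3% were positive. The 95% interval of the log2 fold change included 0 for all 10 genes. It was narrowest for Fcer1g, from -0.39 to 0.89, and widest for Ptprc, from -0.97 to 1.53. The groups overlapped in CPM for all 10, while 9.84% of all genes tested had groups that did not overlap. In the authors' deposited table the 11 transcript rows of these genes had an FDR of 1, while 0.775% of all its transcript rows had an FDR under 0.05.

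**Figure D1:**
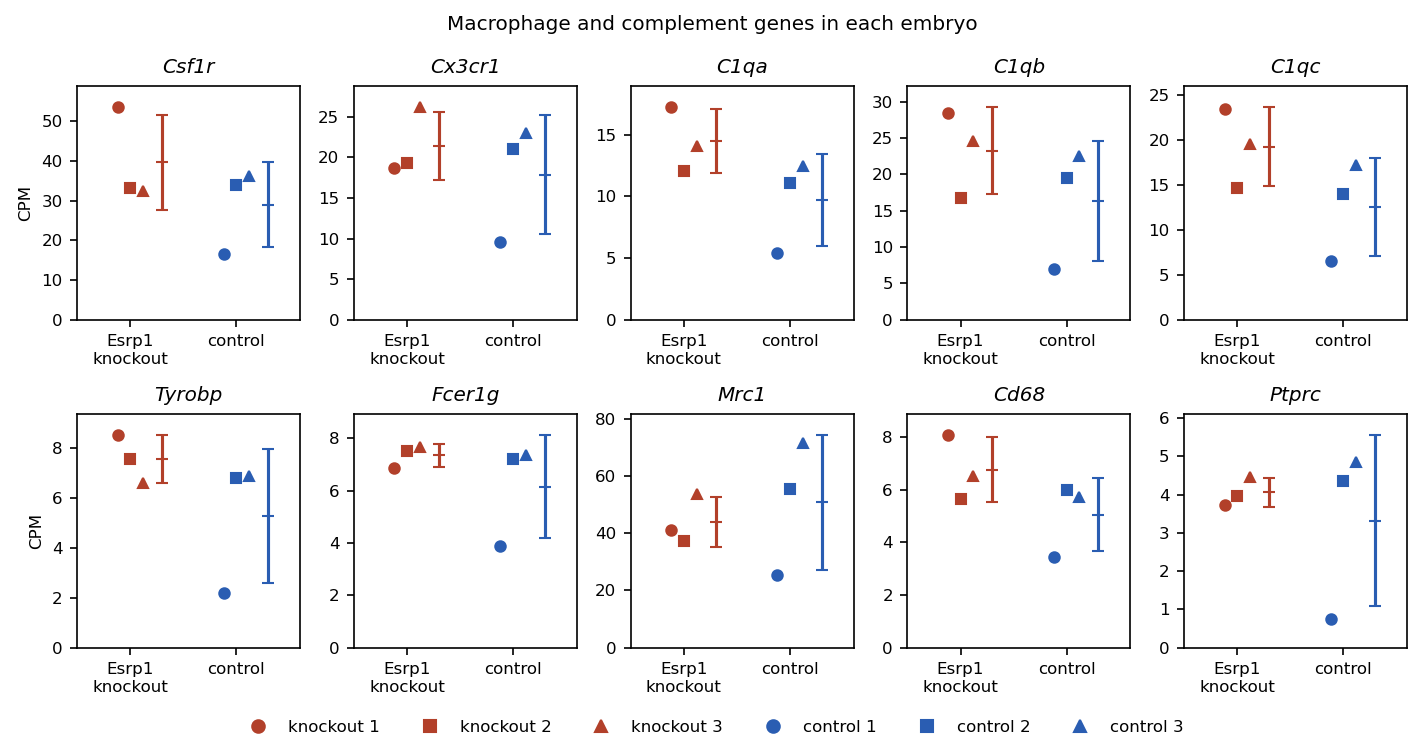
Level of the 10 genes in CPM (y axis, from 0) in each Esrp1 knockout (red) and control (blue) embryo, with symbols for embryo 1, 2 and 3 and a bar for the mean ± SD of 3 embryos. Control 1 is the lowest of the 6 embryos in all 10 panels, for example 0.752 CPM of Ptprc against 3.74 to 4.85 CPM in the other 5.

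Csf1r encodes the receptor for the growth factors CSF1 and IL-34 that macrophages need. It had 53.5, 33.1 and 32.5 CPM in knockouts 1, 2 and 3, against 16.7, 34.0 and 36.2 CPM in controls 1, 2 and 3. Knockout 1 was the highest and control 1 the lowest, and the other 4 embryos lay close together. Knockout over control gave a log2 fold change of 0.45 ± 0.31 (SE), with adjusted p = 0.994 by edgeR. Csf1, a ligand of this receptor, had 13.4, 14.0 and 13.01 CPM in knockouts and 7.46, 13.7 and 17.7 CPM in controls. Il34, the other ligand, had 54 reads in all 6 embryos and was not tested.

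Cx3cr1 encodes the fractalkine receptor, which marks resident macrophages and microglia. It had 18.7, 19.3 and 26.2 CPM in knockouts 1, 2 and 3, against 9.53, 21.0 and 23.0 CPM in controls 1, 2 and 3. Here knockout 1 was not high, and control 1 was again the lowest. The log2 fold change was 0.26 ± 0.31. Its ligand gene Cx3cl1 had 21.3, 11.8 and 16.8 CPM in knockouts and 24.1, 10.1 and 11.5 CPM in controls, with the highest value in control 1, where the receptor gene was lowest.

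The C1q subunits, which assemble in equal numbers into the C1q molecule, moved together from embryo to embryo. C1qa had 17.2, 12.1 and 14.1 CPM in knockouts 1, 2 and 3, against 5.45, 11.1 and 12.5 CPM in controls 1, 2 and 3. C1qb had 28.5, 16.7 and 24.6 CPM in knockouts, against 6.96, 19.5 and 22.6 CPM in controls. C1qc had 23.5, 14.7 and 19.6 CPM in knockouts, against 6.58, 14.0 and 17.2 CPM in controls. For each subunit gene knockout 1 was the highest and control 1 the lowest of the 6 embryos. Their log2 fold changes were 0.57 ± 0.31, 0.50 ± 0.39 and 0.61 ± 0.33 for C1qa, C1qb and C1qc (SE), the last being the largest among the 10 genes.

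Per transcript length, in the FPKM that the authors deposited, the order C1qb, C1qc, C1qa held in all 6 embryos. C1qb stood at 1.42 to 1.76 times C1qa in knockouts and 1.30 to 1.83 times in controls. C1qc stood at 1.26 to 1.41 times C1qa in knockouts and 1.24 to 1.40 times in controls. The proportions of the 3 subunit transcripts thus overlapped between the groups, although the level of C1qb itself ranged from 6.62 to 11.97 FPKM in knockouts and from 2.47 to 8.93 FPKM in controls.

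Tyrobp and Fcer1g encode small membrane adaptors that carry an activation motif for receptors without one of their own, Tyrobp for TREM2 and related receptors and Fcer1g for Fc receptors of IgG and IgE. Tyrobp had 8.54, 7.57 and 6.61 CPM in knockouts 1, 2 and 3, against 2.19, 6.80 and 6.90 CPM in controls 1, 2 and 3. Fcer1g had 6.86, 7.52 and 7.67 CPM in knockouts, against 3.89, 7.21 and 7.38 CPM in controls. Apart from control 1, the embryos lay within 6.86 to 7.67 CPM of Fcer1g, and within 6.61 to 8.54 CPM of Tyrobp. The log2 fold changes were 0.51 ± 0.40 for Tyrobp and 0.25 ± 0.28 for Fcer1g (SE).

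Fcer1g is also used by mast cells, whose list had a median log2 fold change of 1.40 over 8 genes tested. The mast cell protease gene Tpsb2 had 34.3, 14.8 and 30.1 CPM in knockouts 1, 2 and 3, against 6.46, 4.99 and 9.43 CPM in controls 1, 2 and 3 (log2 fold change 1.92 ± 0.35, adjusted p = 0.132 by edgeR), with groups that did not overlap. DESeq2 called 5 of the mast cell genes higher in the knockout (Cma1, Cpa3, Hdc, Mcpt4 and Tpsb2), and the edgeR fit used here called 0, with an unadjusted p under 0.05 for the same 5. The list did not move as one: of the 8 tested, 7 log2 fold changes were positive, with 0.07 for Kit, and Gata2 had -0.54. Gata2 stood far above Tpsb2, at 136 to 244 CPM in knockouts and 228 to 405 CPM in controls. Kit had 43.2 to 47.9 CPM in knockouts and 30.0 to 54.7 CPM in controls. The part of cells other than mast cells in Gata2 and Kit was not tested. Ms4a2, not tested, had 2, 0 and 0 reads in knockouts 1, 2 and 3, against 3, 8 and 3 reads in controls. In the authors' deposited table, from an edgeR comparison of their own, 4 of 12 transcript rows of mast cell genes had an FDR under 0.05, all higher in the knockout: Tpsb2 (1.15e-05), Cma1 (0.000372), Hdc (0.0103) and Cpa3 (0.0307). Fcer1a, the mast cell receptor chain that pairs with Fcer1g, had 0 reads in all 6 embryos, which allows up to 0.029 CPM (3 reads over the summed depth, counting error only). The part of mast cells in the level of Fcer1g was not tested.

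Mrc1 encodes the mannose receptor, an uptake receptor of tissue macrophages that is also found on some vessel-lining cells. It had 41.0, 37.2 and 53.8 CPM in knockouts 1, 2 and 3, against 25.3, 55.5 and 71.7 CPM in controls 1, 2 and 3. Controls 2 and 3 were the highest, control 1 the lowest, and the knockouts lay between. It was the only one of the 10 with a negative log2 fold change (-0.21 ± 0.33 SE), and that sign turned to 0.12 without control 3.

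Cd68, a lysosomal glycoprotein gene of phagocytes, had 8.08, 5.64 and 6.54 CPM in knockouts 1, 2 and 3, against 3.45, 5.99 and 5.71 CPM in controls 1, 2 and 3. Ptprc, which encodes the phosphatase CD45 found on nearly all blood-derived nucleated cells, had 3.74, 3.97 and 4.47 CPM in knockouts, against 0.752, 4.35 and 4.85 CPM in controls. In both genes control 1 was the lowest embryo. For Ptprc this rested on 12 reads in control 1, against 96 and 90 reads in controls 2 and 3. The log2 fold changes were 0.41 ± 0.29 for Cd68 and 0.28 ± 0.55 for Ptprc (SE). Ptprc had 2 transcript rows with 388 and 384 reads in all, so nearly all of its reads fell on sequence that both rows share.

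Ordered by mean FPKM over the 6 embryos, C1qb came first at 7.80 FPKM, followed by C1qc (6.31), Tyrobp (5.19), C1qa (4.68), Fcer1g (4.28), Csf1r (4.07), Mrc1 (4.06), Cd68 (2.44), Cx3cr1 (2.18) and Ptprc (0.272 FPKM). Neighbours in this order stood the same way in all 6 embryos for C1qb over C1qc, Mrc1 over Cd68 and Cx3cr1 over Ptprc. The other neighbours changed places in at least 1 embryo. Csf1r and Mrc1, with nearly equal means, had Csf1r above Mrc1 in 2 embryos and below it in 4.

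Control 1 stood apart in the 10 genes. It was the lowest of the 6 embryos in 10 of 10 genes, as it was in 21.5% of all genes tested. Its CPM was between 17.3% (Ptprc) and 60.3% (Cd68) of that in the lower of controls 2 and 3. Knockout 1 was the highest embryo in 6 of 10 genes (Csf1r, the 3 C1q genes, Tyrobp and Cd68), as it was in 29.1% of all genes tested. Summed over the 10 genes, the level was 210, 158 and 196 CPM in knockouts 1, 2 and 3, against 80.8, 179 and 208 CPM in controls 1, 2 and 3. In a bulk sample, fewer macrophages and less RNA per macrophage cannot be told apart.

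Without control 1 the median log2 fold change of the 10 genes was 0.14, against 0.43 with all embryos, and Cx3cr1 (-0.04) and Ptprc (-0.18) turned negative. Without both embryos numbered 1 the median was 0.0379, with 6 genes positive and 4 negative. In both fits 0 of the 10 genes passed. Without both embryos numbered 1, and likewise without knockout 1 alone, sex and genotype cannot be told apart. Across the 6 fits that each left out a single embryo, the median stayed between 0.14 and 0.64.

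**Figure D2:**
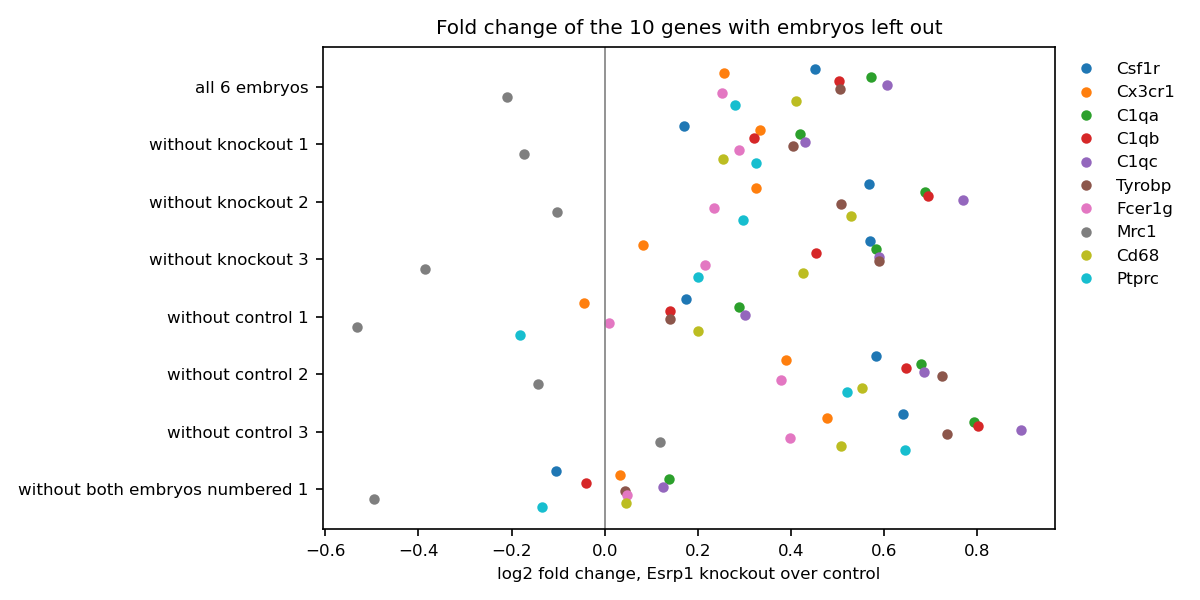
Log2 fold change of each of the 10 genes (x axis, knockout over control, edgeR) with all 6 embryos and with the embryos named on the y axis left out. Without control 1 the values run from -0.53 for Mrc1 to 0.30 for C1qc, and without both embryos numbered 1 from -0.49 to 0.14. In the fits without knockout 1 and without both embryos numbered 1, sex and genotype cannot be told apart.

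Control 1 also stood at an end of other lists. The level of a list was taken as the average, over its genes, of how far log2 CPM lay from the 6-embryo mean of that gene. It was -1.11 in control 1 for the 10 genes and 0.05 to 0.37 in the other 5 embryos. For 12 mesenchymal genes it was -0.50 in control 1 and -0.02 to 0.22 in the others. The epithelial list ran the other way, with 0.49 in control 1, the highest of the 6 embryos, 0.11, -0.10 and 0.24 in knockouts 1, 2 and 3, and -0.47 and -0.28 in controls 2 and 3. The 12 immediate early genes, which respond within minutes to handling, were also highest in control 1 (1.92), followed by knockout 1 (0.79). The part of tissue make-up and handling in the macrophage levels was not tested.

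**Figure D3:**
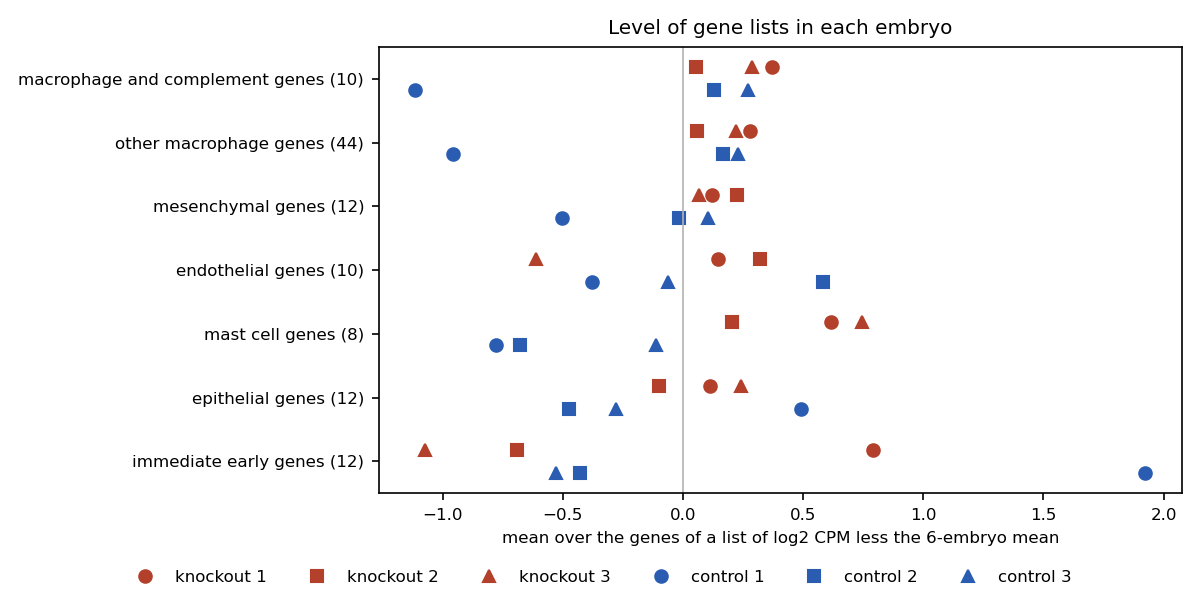
Level of 7 gene lists (y axis, with the number of genes tested) in each embryo, as the average distance of log2 CPM from the 6-embryo mean of each gene (x axis). Knockouts are drawn red above the controls in blue; control 1 is far to the left for both macrophage lists (-1.11 and -0.96) and to the right for the epithelial list (0.49).

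Other genes of macrophages were tested alongside. Of 54 listed genes 44 were tested, 0 passed in either direction (2 had an unadjusted p under 0.05, and DESeq2 called 0), 36 log2 fold changes were positive and 8 negative, and their median was 0.31. Control 1 was the lowest embryo in 38 of the 44. The lysozyme gene Lyz2 had a log2 fold change of 0.48, the Fc-receptor-like gene Fcrls 0.21, the adhesion receptor gene Emr1 0.31, the actin regulator gene Coro1a 0.57, the lysosomal gene Laptm5 0.31 and the pore-forming gene Mpeg1 -0.10 (adjusted p = 0.994 for each by edgeR). The log2 fold changes of Stab1, F13a1 and Olfml3 were 0.05, -0.08 and -0.48. Some listed genes are also expressed outside macrophages, among them Sall1, a transcription factor gene of epithelia as well as of microglia, which had 66.6 to 119 CPM in knockouts and 76.7 to 119 CPM in controls.

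Taken within each embryo, Mrc1 was lower relative to the other 9 genes in every knockout than in every control. Its log2 CPM less the mean of the other 9 was 1.54, 1.74 and 2.07 in knockouts 1, 2 and 3, against 2.42, 2.29 and 2.55 in controls 1, 2 and 3. The groups did not overlap. The difference was -0.64, so that Mrc1 relative to the other 9 stood at 64.3% of the control value. The scaling of the libraries cancels in this measure except for the prior count added before the log. This measure was chosen after the values were seen. Because the groups did not overlap, the two-sided exact permutation test could only give p = 0.10, the smallest that 3 against 3 embryos allow. That p therefore adds nothing to the groups being apart. Mrc1 was the only one of the 10 with groups apart in this measure, and of all genes tested 7.56% had groups apart when set against the mean log2 CPM of the 10 genes. Leaving out each embryo in turn gave differences of -0.78 to -0.52.

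**Figure D4:**
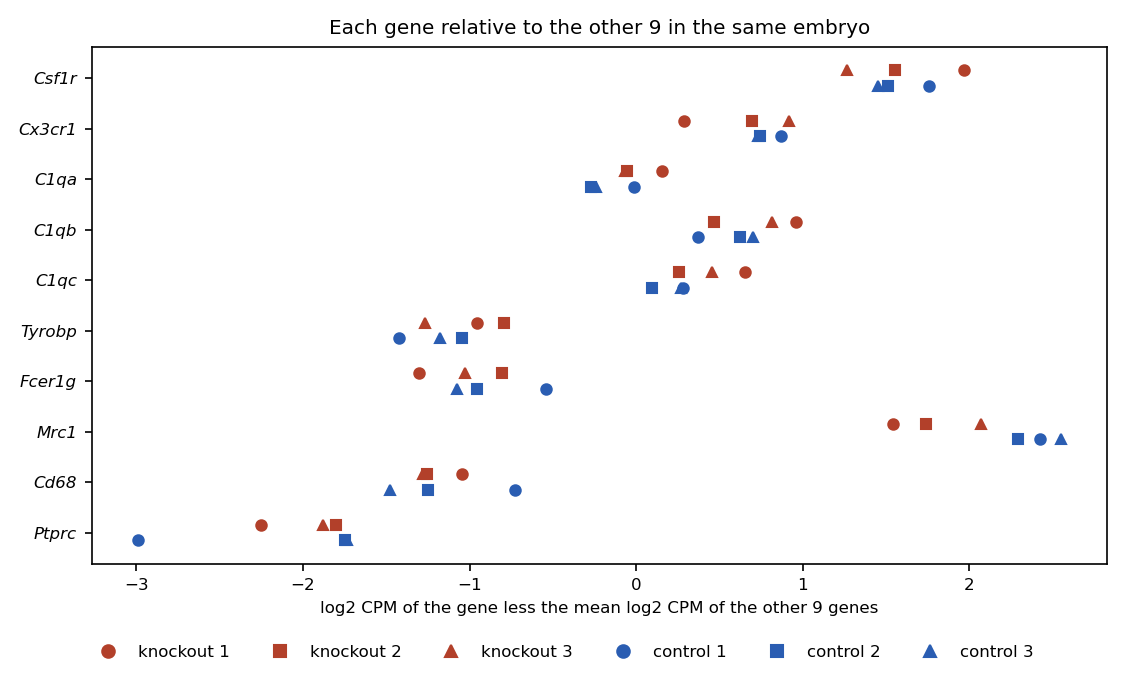
Log2 CPM of each gene less the mean log2 CPM of the other 9 genes in the same embryo (x axis), with knockouts in red above controls in blue. Mrc1 is the row in which the groups are apart, at 1.54 to 2.07 in knockouts and 2.29 to 2.55 in controls.

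The contrast of Mrc1 with the C1q genes was also expressed per transcript length. These ratios come from the same reads and embryos as the log2 CPM measure above, which already included the C1q genes. They restate that contrast and are not a separate test of it. The FPKM of Mrc1 over that of C1qa was 0.530, 0.683 and 0.853 in knockouts 1, 2 and 3, against 1.02, 1.12 and 1.26 in controls 1, 2 and 3. Mrc1 over C1qb was 0.316, 0.481 and 0.485 in knockouts, against 0.788, 0.624 and 0.689 in controls. Mrc1 over C1qc was 0.380, 0.544 and 0.605 in knockouts, against 0.827, 0.868 and 0.897 in controls. For each of the 3 subunits every control ratio lay above every knockout ratio. Control 1, the embryo with the lowest levels of the 10 genes, had the lowest control ratio to C1qa and C1qc and the highest to C1qb. Of the 45 pairs among the 10 genes, 7 had a log2 difference with groups apart, and 6 of these 7 involved Mrc1. The remaining pair was Cx3cr1 with C1qc. The 9 pairs with Mrc1 all use its same values, so their count restates its contrast. The share of such pairs over all genes was not computed, and set against the mean of the 10 genes 7.56% of all genes tested had groups apart.

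Among the 44 further macrophage genes, 8 had groups apart relative to the mean of the 10 genes, as had 7.56% of all genes tested. Of these 8, 5 were lower and 3 higher in the knockout, and none was tested on this scale. The lower ones included the coagulation factor gene F13a1, the scavenger receptor gene Stab1, the transcription factor gene Irf8, and Olfml3. F13a1 had 1.06, 1.05 and 1.35 on this scale in knockouts, against 1.59, 1.49 and 1.69 in controls. Stab1 had 2.56, 2.45 and 2.50 in knockouts, against 3.10, 2.86 and 2.64 in controls. The higher ones were Tmem119, a gene known from microglia, Ms4a7 and Coro1a, and Tmem119 had 0.18, 0.03 and 0.00471 in knockouts, against -0.30, -0.45 and -0.17 in controls. Stab1 is also expressed by vessel-lining cells, and Olfml3 by mesenchyme, and the part of such cells in these relative levels was not tested. Of the 10 genes of endothelial cells tested 0 passed, with a median log2 fold change of -0.11. Emcn, 1 of them, passed in the fit without both embryos numbered 1 (-0.64, adjusted p = 0.0166, edgeR). In that fit sex and genotype cannot be told apart.

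Downstream of the adaptors, 11 of 23 listed genes of activation-motif signalling were tested and 0 passed in either direction (0 with an unadjusted p under 0.05, and DESeq2 called 0). Control 1 was the lowest embryo in 8 of the 11, and their median log2 fold change was 0.27. The kinase gene Lyn had -0.12, the phosphatase genes Ptpn6 and Inpp5d had 0.13 and 0.27, and the phospholipase gene Plcg2 had 0.03.

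The rest of the complement system had mixed signs. Of 44 listed genes 25 were tested, 0 passed in either direction (4 had an unadjusted p under 0.05, where 4.77% of all genes tested did, and DESeq2 called 0), 13 log2 fold changes were positive and 12 negative, their median was 0.0393, and control 1 was the lowest embryo in 6. The genes of the C1q-associated proteases C1ra and C1s had 1.37, 2.04 and 1.27 CPM and 5.64, 2.68 and 6.47 CPM in knockouts, against 0.627, 0.771 and 1.56 CPM and 2.01, 2.90 and 3.61 CPM in controls. The next components were sparse, with 20 reads of C4b in all embryos, 294 of C2 and 298 of C3. Mbl1, C6, C8a and Vsig4 had 0 reads.

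The 4 complement genes with an unadjusted p under 0.05 each had groups that did not overlap, as had 9.84% of all genes tested. They were picked by that p from the same values, so the groups being apart adds nothing to it. Masp1, a protease gene of the lectin pathway, had 31.1, 23.4 and 26.0 CPM in knockouts 1, 2 and 3, against 22.4, 15.5 and 13.8 CPM in controls 1, 2 and 3 (log2 fold change 0.64, adjusted p = 0.698, edgeR). Serping1, the gene of the inhibitor of C1r and C1s, had 17.1, 11.5 and 12.9 CPM in knockouts, against 8.65, 5.94 and 9.97 CPM in controls (0.75, adjusted p = 0.712, edgeR). Cfi, the protease gene that inactivates C3b, had 16.8, 13.2 and 12.9 CPM in knockouts, against 30.9, 18.4 and 18.2 CPM in controls (-0.66, adjusted p = 0.838, edgeR). Calr, the gene of a chaperone that also binds C1q, had 1307, 1352 and 1505 CPM in knockouts, against 1230, 979 and 1013 CPM in controls (0.37, adjusted p = 0.983, edgeR). Calr passed in the fit without both embryos numbered 1 (0.51, adjusted p = 0.0485, edgeR), in which sex and genotype cannot be told apart. Other genes of the list had log2 fold changes of -0.35 for Clu, 0.07 for C1qbp, -0.19 for Cd93, -0.13 for Cr1l, -0.14 for Megf10, 0.08 for C3ar1 and -0.05 for Cd59a.

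The lists of lymphocytes and dendritic cells and of granulocytes and monocytes had low sums, while red cell genes were abundant. Cd3d of T cells, Ms4a1 of B cells, Ncr1 of natural killer cells and Xcr1 of dendritic cells had 0 reads in all 6 embryos. Other genes of this list did have reads, among them Cd3e of T cells (30), Cd79b of B cells (91) and Cd74 (214). The 0 reads of single genes therefore do not show that these cells were absent. The granulocyte and monocyte list of 10 genes summed to 4.60 to 27.9 CPM in knockouts and 6.14 to 11.6 CPM in controls, with the highest value in knockout 2. The lymphocyte and dendritic cell list summed to 21.0 to 23.6 CPM in knockouts and 20.6 to 21.6 CPM in controls. The largest part of each sum was 1 gene, Zbtb46, with 14.0 to 15.7 CPM in knockouts and 14.5 to 15.4 CPM in controls. Of the 18 genes of this list 5 were tested. The red cell list summed to 499 to 1371 CPM in knockouts and 815 to 1724 CPM in controls, and in these sums Hba-a1 and Hba-a2, and likewise Hbb-b1 and Hbb-b2, hold identical values, so their reads count for both copies. All 8 red cell genes tested had negative log2 fold changes, with these identical copies counted separately, and 0 passed. Over all genes tested 50.3% were positive. The level of the red cell list was lowest in knockout 2 (-0.81) and highest in control 2 (1.05), while that of the 10 genes was 0.05 in knockout 2 and 0.13 in control 2.

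Across the 6 embryos the 10 genes varied together, with Pearson's r of log2 CPM between 0.57 and 0.99 over the 45 pairs (median 0.89). All genes share the libraries and control 1 carries much of the range, so these values describe these embryos. Of 14624 genes with at least 60 reads outside the 10, the highest r with the mean of the 10 was that of Tifa (0.996), followed by Mir703 and the Fc receptor gene Fcgr3 (both 0.993), Ly9, Hfe, Crbn, Wdr89, Carhsp1, St6galnac6 and Bhlhe22 (0.984). Fcgr3 had 9.22, 7.25 and 8.41 CPM in knockouts, against 2.51, 7.17 and 9.59 CPM in controls. Of the 44 further macrophage genes 22 had an r over 0.9, as had 292 of all 14624.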

How the data were processed

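Reads of 12 libraries (2 per embryo, 6 embryos) stand in 1 column per embryo in the table that the authors deposited. Its counts are raw reads per RefSeq transcript row, per the file headers, and its FPKM values are per transcript length and library size, per the file headers. The log2 fold changes, p-values and FDR in it are, per the file headers, those of an edgeR comparison that the authors made. The submitters' processing notes name edgeR and mm10. The choice of aligner and counter is not given in the sources used here. Not used were 8 further columns of values per embryo or group. For a gene with several rows, the row with the highest sum of reads was taken. Genes were kept with filterByExpr (minimum count 10), scaled by TMM and tested with edgeR 4.0.16 (R 4.3.3, quasi-likelihood F test, Benjamini-Hochberg adjustment over 14717 genes). SE was computed as |log2 fold change| divided by √F. Log2 CPM used a prior count of 2. Alternatives were DESeq2 1.42.0, other scaling, filtering and row sums, embryos left out, an embryo-number block and Xist as a covariate. The fit was tested on simulated data. The replicates are individual embryos, per the series' design text. The 10 genes and the other lists, and their tests, were chosen with earlier results of these data known. Named are the 10 genes, Esrp1, the most abundant genes of the macrophage, complement and adaptor lists and the 10 genes most like the 10; other lists are given by sums and levels, and genes named with values beyond these were chosen after their values were seen. Of the symbols listed, 12 matched no row. Read numbers and limits cover counting error only. Some genes of the lists are counted in the list totals but not reported by name here.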

Additional observations from a re-analysis of the deposited data

How the results depend on the processing

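Under 13 alternatives, 0 of the 130 log2 fold changes of the 10 genes passed (lowest adjusted p = 0.217, with Xist as a covariate), and 124 kept their sign. The 6 that turned were Cx3cr1 (-0.044) and Ptprc (-0.18) without control 1, Mrc1 (0.12) without control 3, and Csf1r (-0.10), C1qb (-0.041) and Ptprc (-0.13) without both embryos numbered 1. With single embryos left out, Cx3cr1 ranged from -0.044 to 0.48, Ptprc from -0.18 to 0.64 and Mrc1 from -0.53 to 0.12. The cause was not tested. The count over all genes was 22, and 165 with DESeq2, 159 without both embryos numbered 1, 6 with Xist as a covariate and 0 to 30 with single embryos left out. Of the genes on the other lists 0 passed, but 5 with DESeq2 (all of mast cells) and 6 without both embryos numbered 1. Sex and genotype cannot be told apart in the fits without both embryos numbered 1 and without knockout 1. With the embryo number as a replicate block 6 genes were called, 0 of them among the 10. Same-numbered embryos had correlations of deviations of 0.0768, 0.177 and 0.0288, and differently numbered embryos had -0.22 to 0.16. These values do not settle whether the numbers pair the embryos, and the main fit did not treat them as paired. The labels of same-numbered embryos share a code whose meaning is not given. Ptprc, with the widest interval of the 10, rests on 12 reads in control 1. The parts of depth and of the spread between embryos in these errors were not tested.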
